A study of Mus musculus with 33 samples.

Results

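The immunoglobulin lambda (Igl) light chain locus of the mouse lies on chromosome 16 and holds a few variable genes, each upstream of a pair of joining-constant units. A B cell that rearranges it joins a variable segment to a joining segment, and the joined gene is transcribed through the constant gene that lies behind it. Most mouse B cells use the kappa light chain instead, so lambda is the minor class, and an enhancer is known downstream of each pair of lambda constant genes. Iglc1, Iglc2 and Iglc3 encode the constant domains of the lambda chains, and Iglc4 is a pseudogene.

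The RNA of this locus was taken as every numbered genomic region of the deposited tables that lies wholly inside chr16:19000000-19210000 (GRCm38) and has at least 20 estimated counts summed over the 24 RNA-seq libraries. The rule found 11 of 49745 numbered regions, and no numbered region in the window fell under the count minimum. The members were selected on their summed counts, which ran upwards of 299, so their being transcribed is not a result. Of the 11, 2 overlap constant genes, 1 overlaps the variable gene Iglv1, and 8 overlap no annotated gene and are called flanking intergenic regions. All 11 passed the filter on low counts, as did 11264 of all numbered regions.

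The libraries came from CH12, a mouse B lymphoma line used to study antibody class switching, and compared cells with and without ZMYND8, a nuclear protein that recognises marks on histone tails. The lines were 2 ZMYND8 knockout (KO) clones, KO1 and KO2, a wild-type (WT) clone, and a WT line labelled without the word clone, which is called parental WT here. Each line was cultured activated or unactivated for 48 h, with 3 biological repeats of each, giving 8 groups. The labels of the RNA libraries do not name the activating agents. A KO genotype is represented by 2 clones and the WT genotype by 2 lines, so the p-values measure the spread between cultures, and a difference between clones that is unrelated to ZMYND8 cannot be told apart from its loss in any single line.

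Levels are CPM, the count of a region per 1000000 counts of its library after edgeR's TMM scaling. The library totals ran between 29 M and 34.1 M estimated counts (M, 1000000), and the 11 regions held 0.00594% to 0.0139% of a library. Of 8 B cell markers, 5 had regions inside them, and these summed to 45.6 to 62.3 CPM in activated KO cells against 26.1 to 46.6 CPM in activated WT cells, and to 32.4 to 46.6 CPM in unactivated KO cells against 16.8 to 42.3 CPM in unactivated WT cells. The only T cell marker of 7 with a region, Lck, lay between 0.335 and 0.818 CPM in activated KO cells, against 0.153 and 0.298 CPM in activated WT cells. Unactivated, it lay between 0.424 and 0.752 CPM in KO and between 0.190 and 0.335 CPM in WT cells. Of 5 plasma cell markers 3 had regions, summing to 3.30 to 5.01 CPM in activated KO and 1.70 to 2.90 CPM in activated WT cells, and to 2.10 to 2.84 CPM in unactivated KO and 0.773 to 2.75 CPM in unactivated WT cells. Of 5 myeloid markers 2 had regions, summing to 0.684 to 0.958 CPM in activated KO and 0.694 to 1.04 CPM in activated WT cells, and to 0.244 to 0.841 CPM in unactivated KO and 0.288 to 0.878 CPM in unactivated WT cells, and none of the 4 erythroid markers had one. The sums leave out reads assigned to transcript targets and hide differences between markers. In activated cells Ebf1 averaged 36.3 CPM in KO and 21.4 CPM in WT, and Blk and Cd79a also averaged higher in KO. Activated Pax5 averaged 11.9 CPM in KO and 12.3 CPM in WT, and Cd22 also averaged lower in KO. Among the plasma cell markers, Irf4 and Prdm1 averaged higher and Sdc1 lower in KO in both states. The part of these markers in the results below was not tested. RNA from regions inside Zmynd8 averaged 3.49 CPM in activated KO cells and 2.44 CPM in activated WT cells, a log2 change of 0.44 that was not called (adjusted p = 0.0891), and 1.90 CPM in unactivated KO cells and 1.53 CPM in unactivated WT cells (adjusted p = 0.325). The deleted part of the gene is not given, so this sum does not check the genotype labels. On the second principal component of the most variable targets 3 WT libraries stood apart. These were unactivated WT clone replicate 2, unactivated parental WT replicate 3 and activated parental WT replicate 2. Without them, 8 of the 11 regions were still called between KO and WT cells in activated and 8 in unactivated cells, as with them.

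All genes of the locus point towards lower coordinates, so that each joining segment lies at a higher coordinate than its constant gene and the sequence downstream of Iglc1 lies below it. Flanking regions are named here by the distance of their midpoint from that of Iglc1 (chr16:19061752-19062071), with a minus sign for downstream. Downstream of Iglc1 are the -57 kb region (chr16:19002427-19008245), the -51 kb region (chr16:19010282-19012128), the -37 kb region (chr16:19023848-19026109) and the -9 kb region (chr16:19052562-19053449). Between Iglv1 and Iglc4 are the +85 kb region (chr16:19146029-19147228), the +90 kb region (chr16:19150451-19153536), the +118 kb region (chr16:19178718-19180317) and the +124 kb region (chr16:19185463-19186344). These last 4 lie upstream of the Iglc1 pair and downstream of the Iglc2 pair, and the +118 kb region begins 14682 bases from Iglc4. The -37 kb region begins 35643 bases from Iglc1.

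In KO cells the RNA of the constant gene regions was lower and the RNA of most flanking regions was higher than in WT cells, in both states. Reads assigned to transcript targets are not part of these values. The constant gene region of Iglc1 and Iglc3 was 7.30-fold lower in activated KO cells than in activated WT cells, while the -51 kb region was 33.7-fold higher. In each state 6 of the 8 flanking regions were called higher and both constant gene regions were called lower. Across all 11264 regions tested, 5.66% were called higher and 1.35% lower in activated KO cells against WT cells, and 3.75% were called higher and 2.64% lower in unactivated cells. The median log2 change of the 8 flanking regions was 2.25 in activated and 2.48 in unactivated cells, against 0.09 and -0.03 over all tested regions. No flanking region was called lower and no gene region was called higher in either state. Calls here are edgeR quasi-likelihood tests with Benjamini-Hochberg adjusted p under 0.05 over every target in the fit. In bulk RNA, fewer cells that transcribe the locus and less RNA per cell cannot be told apart.

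**Figure D1:**
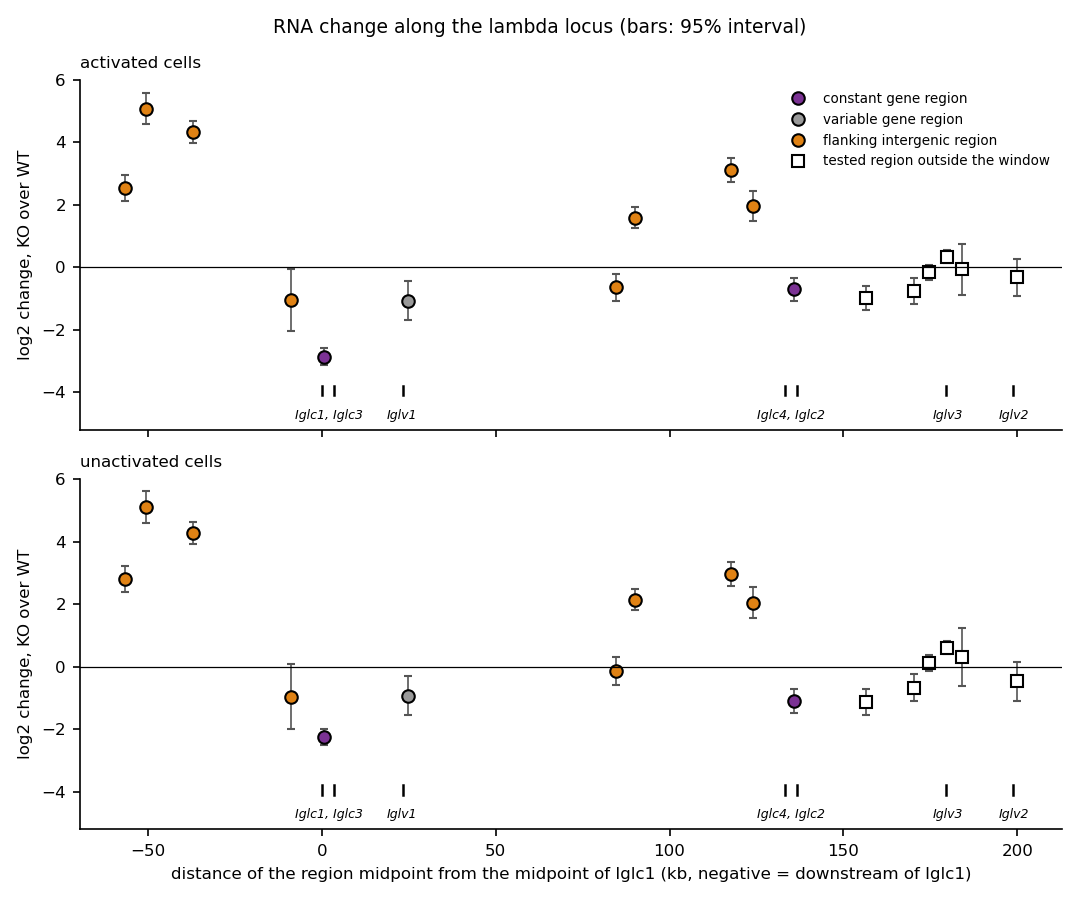
Log2 change of KO over WT cells (y axis) against the distance of each tested region from Iglc1 (x axis, kb), in activated (upper) and unactivated (lower) cells. Points are regions, bars are 95% intervals and ticks mark genes. The 3 regions farthest downstream of Iglc1 and 3 of the 4 downstream of Iglc4 lie between 1.59 and 5.12, while the constant gene regions lie between -2.87 and -0.71.

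The region chr16:19059420-19065940 holds Iglc1, Iglj1 and Iglc3, and gave the most RNA of the locus in WT cells. In activated cells it had 14.9, 12.9 and 14.3 CPM in the 3 KO1 cultures and 12.6, 8.06 and 10.8 CPM in the 3 KO2 cultures. The activated WT clone had 77.8, 76.9 and 74.2 CPM, and activated parental WT had 121, 88.1 and 99.4 CPM. Every KO culture was thus far under every WT culture, and the lowest WT value was 74.2 CPM against a highest KO value of 14.9 CPM. The log2 change was -2.87 ± 0.14 (SE; adjusted p = 3.48e-10). The lambda constant genes resemble each other in sequence, and 0 of the 24 libraries gave the region a count that is whole within 0.001, so the counting model shared some of its reads with other targets. Transcript targets are not paired with gene names in the tables used here, so the mature light chain mRNA was not analysed here.

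In unactivated cells this region had 30.5, 23.3 and 22.3 CPM in KO1 and 15.5, 12.2 and 12.4 CPM in KO2. The unactivated WT clone had 78.1, 55.0 and 76.8 CPM and unactivated parental WT had 122, 121 and 84.0 CPM. The genotypes again did not overlap, and the log2 change was -2.25 ± 0.14 (adjusted p = 3.28e-09). The fall was called in all 4 pairings of a KO line with a WT line in each state, with log2 changes between -3.30 and -2.44 in activated and between -3.03 and -1.47 in unactivated cells. With counts summed per line, so that 2 KO lines stood against 2 WT lines, the change kept its size but lost its call, with an adjusted p of 0.0573 in activated and 0.0834 in unactivated cells, the highest over the alternatives tried.

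Iglc2 encodes the constant domain of the second joining-constant pair, and the region chr16:19196554-19199126 holds the whole gene. In activated cells it had 3.23, 2.19 and 1.87 CPM in KO1 and 3.32, 1.82 and 2.14 CPM in KO2, against 3.25, 2.89 and 4.36 CPM in the WT clone and 4.54, 3.74 and 5.20 CPM in parental WT. The genotypes overlapped. The log2 change was -0.71 ± 0.19 (adjusted p = 0.0321), and the call was lost under 13 of 24 alternatives, among them 7 of 12 that left out 1 library. Those 7 left out KO1 replicate 2 or 3, KO2 replicate 2 or 3, WT clone replicate 3, or parental WT replicate 1 or 3, and their adjusted p ran up to 0.0969.

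In unactivated cells the Iglc2 region had 1.95, 1.44 and 1.49 CPM in KO1 and 1.34, 1.16 and 0.874 CPM in KO2, against 2.76, 1.70 and 2.21 CPM in the WT clone and 4.38, 3.77 and 3.04 CPM in parental WT. KO1 reached into the range of the WT clone, and the log2 change was -1.09 ± 0.20 (adjusted p = 0.00129). The call was lost with KO1 alone (adjusted p = 0.0706), against the WT clone alone (adjusted p = 0.0914) and with counts summed per line (adjusted p = 0.212). Of the 4 pairings of single lines, 2 were called lower in unactivated cells and 0 in activated cells.

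Iglv1, the variable gene used with Iglc1 and Iglc3, lies in the region chr16:19084806-19088464. Its levels were low, with a lowest value, median and highest value of 0.341, 0.937 and 1.18 CPM in activated KO cells against 1.30, 1.73 and 2.33 CPM in activated WT cells. The genotypes did not overlap in activated cells, but the log2 change of -1.06 ± 0.32 was not called (adjusted p = 0.0508). In unactivated cells the values were 0.290, 0.550 and 0.714 CPM in KO cells and 0.393, 1.06 and 1.69 CPM in WT cells, with a log2 change of -0.93 ± 0.32 that was also not called (adjusted p = 0.0971). DESeq2 called both (adjusted p = 0.00728 and 0.0493), as did a fit of regions alone (adjusted p = 0.000725 and 0.0236). The activated change was also called under relative log expression scaling (adjusted p = 0.0427) and without activated KO1 replicate 1 (0.0425), KO2 replicate 3 (0.0476) or WT clone replicate 2 (0.0494), and the unactivated one without unactivated WT clone replicate 3 (0.0412).

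**Figure D2:**
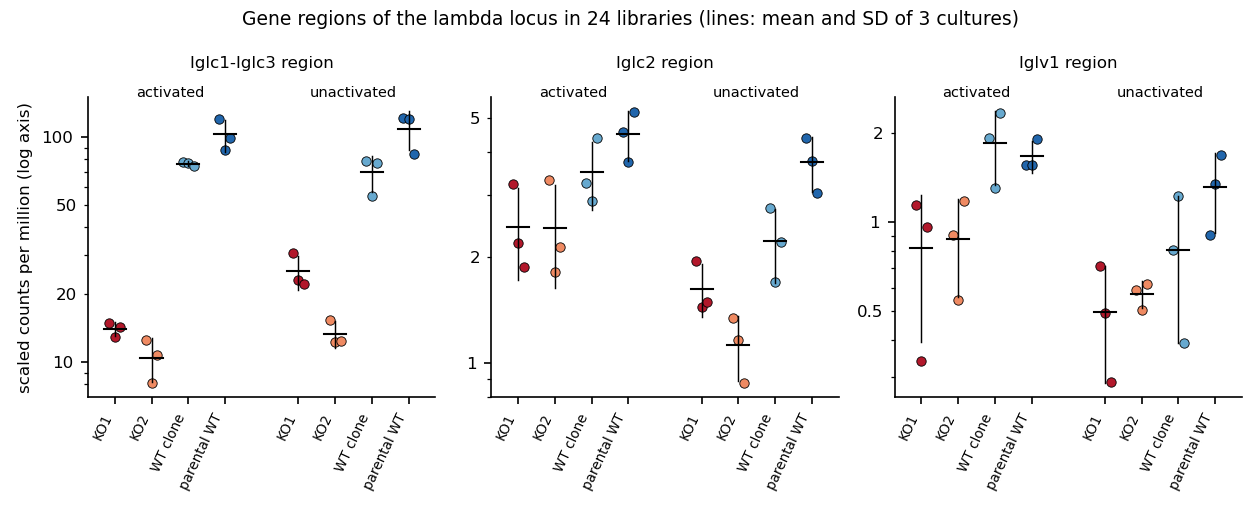
Scaled CPM (log axis) of the 3 gene regions in each library, by line and state. Points are cultures, horizontal lines are means of 3 and vertical lines are SDs. In the Iglc1-Iglc3 region the KO cultures sit between 8.06 and 30.5 CPM and the WT cultures between 55.0 and 122 CPM.

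Downstream of Iglc1, the -51 kb region had little RNA in WT cells. In activated cells it had 21.4, 16.3 and 22 CPM in KO1 and 20.9, 15.7 and 23.3 CPM in KO2, against 0.980, 0.305 and 0.660 CPM in the WT clone and 0.553, 0.347 and 0.676 CPM in parental WT. In unactivated cells it had 15.5, 19 and 15.8 CPM in KO1 and 18.2, 18.2 and 17.7 CPM in KO2, against 0.561, 0.333 and 0.373 CPM in the WT clone and 0.792, 0.435 and 0.506 CPM in parental WT. The highest WT culture had 0.980 CPM and the lowest KO culture 15.5 CPM, so the genotypes did not overlap. The log2 change was 5.08 ± 0.25 in activated (adjusted p = 4.24e-10) and 5.12 ± 0.26 in unactivated cells (adjusted p = 2.69e-10). Among the 11264 tested regions this log2 change ranked 4th from the top in activated cells and 1st in unactivated cells.

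The -37 kb region had 11.8, 12.1 and 15.9 CPM in activated KO1 and 17.8, 14.0 and 17.5 CPM in activated KO2, against 0.979, 0.626 and 0.839 CPM in the WT clone and 0.638, 0.675 and 0.623 CPM in parental WT. In unactivated cells it had 11.5, 11.8 and 9.73 CPM in KO1 and 12.2, 10.1 and 11.2 CPM in KO2, against 0.692, 0.370 and 0.319 CPM in the WT clone and 0.792, 0.690 and 0.602 CPM in parental WT. The highest WT culture had 0.979 CPM and the lowest KO culture 9.73 CPM. The log2 change was 4.34 ± 0.18 (adjusted p = 4.61e-11) in activated and 4.28 ± 0.18 (adjusted p = 2.76e-11) in unactivated cells, ranking 8th and 7th of all tested regions.

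The -57 kb region, the longest flanking one at 5819 bases, had RNA in both genotypes. In activated cells it had 15.7, 11.8 and 19.5 CPM in KO1 and 16.6, 14.0 and 17.7 CPM in KO2, against 3.27, 2.24 and 2.51 CPM in the WT clone and 2.62, 2.70 and 3.20 CPM in parental WT. In unactivated cells it had 14.5, 18.9 and 11.7 CPM in KO1 and 14.3, 14.7 and 18.8 CPM in KO2, against 2.60, 2.42 and 0.947 CPM in the WT clone and 2.17, 2.18 and 2.96 CPM in parental WT. The genotypes did not overlap, and the log2 change was 2.53 ± 0.21 (adjusted p = 2.30e-07) in activated and 2.81 ± 0.22 (adjusted p = 5.93e-08) in unactivated cells.

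Nearest to Iglc1 on this side, the -9 kb region did not share the rise. It had 299 counts in all, whole within 0.001 in each of the 24 libraries, and averaged 0.332 ± 0.173 CPM in activated KO cells and 0.678 ± 0.159 CPM in activated WT cells (SD, n = 6). Unactivated, it averaged 0.187 ± 0.111 CPM in KO and 0.356 ± 0.188 CPM in WT cells (SD, n = 6), with 1 KO1 culture at 0. The log2 changes of -1.05 ± 0.51 and -0.96 ± 0.53 were not called (adjusted p = 0.311 and 0.364), and the interval in activated cells ran from -2.04 to -0.06. With regions alone in the fit, the activated change was called (-1.18, adjusted p = 0.0293). In activated cells the 3 KO1 cultures, at 0.186 to 0.290 CPM, lay under every WT culture, at 0.441 to 0.874 CPM, while KO2 overlapped WT. In the other state both KO lines overlapped WT.

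On the side of the Iglc2 pair, the +118 kb region was the more abundant of the pair of flanking regions nearest to Iglc4. In activated cells it had 9.37, 8.17 and 8.28 CPM in KO1 and 12.8, 9.93 and 9.69 CPM in KO2, against 0.916, 0.885 and 1.14 CPM in the WT clone and 1.33, 1.35 and 1.07 CPM in parental WT. In unactivated cells it had 8.58, 6.31 and 7.49 CPM in KO1 and 9.93, 6.72 and 8.14 CPM in KO2, against 1.25, 0.555 and 0.702 CPM in the WT clone and 1.55, 1.17 and 0.885 CPM in parental WT. The lowest KO culture was above the highest WT culture in each state. The log2 change was 3.12 ± 0.19 (adjusted p = 6.95e-09) in activated and 2.96 ± 0.19 (adjusted p = 7.84e-09) in unactivated cells.

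The +90 kb region lies farther from the Iglc2 pair. In activated cells it had 9.04, 6.44 and 6.04 CPM in KO1 and 11.8, 8.44 and 10.8 CPM in KO2, against 3.36, 2.77 and 3.69 CPM in the WT clone and 2.70, 1.70 and 3.06 CPM in parental WT. In unactivated cells it had 6.74, 5.97 and 6.41 CPM in KO1 and 8.30, 6.0 and 6.56 CPM in KO2, against 1.84, 1.12 and 1.12 CPM in the WT clone and 1.55, 1.61 and 1.76 CPM in parental WT. It averaged 8.75 ± 2.29 CPM in activated KO cells and 2.88 ± 0.686 CPM in activated WT cells (SD, n = 6). Unactivated, it averaged 6.66 ± 0.856 CPM in KO and 1.5 ± 0.311 CPM in WT cells (SD, n = 6). The genotypes did not overlap, and its log2 changes were 1.59 ± 0.17 (adjusted p = 4.43e-06) and 2.15 ± 0.18 (adjusted p = 1.38e-07). The +124 kb region averaged 1.64 ± 0.240 CPM in activated KO and 0.419 ± 0.0772 CPM in activated WT cells, and 1.09 ± 0.173 CPM in unactivated KO and 0.275 ± 0.134 CPM in unactivated WT cells (SD, n = 6). Its log2 changes were 1.97 ± 0.24 (adjusted p = 2.46e-05) and 2.05 ± 0.25 (adjusted p = 2.00e-05), again with no overlap. With counts summed per line, the +124 kb region lost its call in both states (adjusted p = 0.0921 and 0.0826) and the +90 kb region lost it in activated cells (adjusted p = 0.0681).

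The +85 kb region was the other flanking region without a genotype call. It averaged 0.481 ± 0.163 CPM in activated KO and 0.736 ± 0.203 CPM in activated WT cells, and 0.290 ± 0.0945 CPM in unactivated KO and 0.314 ± 0.0565 CPM in unactivated WT cells (SD, n = 6). Its log2 changes were -0.64 ± 0.22 (adjusted p = 0.0980) and -0.13 ± 0.23 (adjusted p = 0.878), and the genotypes overlapped. It was called lower in activated cells with KO2 alone (-1.01, adjusted p = 0.0382) and with regions alone in the fit (-0.76, adjusted p = 0.0113). Its neighbour, the +90 kb region, was called higher in both states.

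The 6 flanking rises were called in all 4 pairings of single lines in each state. The narrowest range of log2 change over the 4 pairings was 2.46 to 2.59, for the -57 kb region in activated cells, and the widest was 1.5 to 2.61, for the +124 kb region in unactivated cells. The KO and WT cultures did not overlap for 8 of the 11 regions in activated cells and for 7 in unactivated cells, in either direction, against 5.64% and 4.22% of all tested regions.

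**Figure D3:**
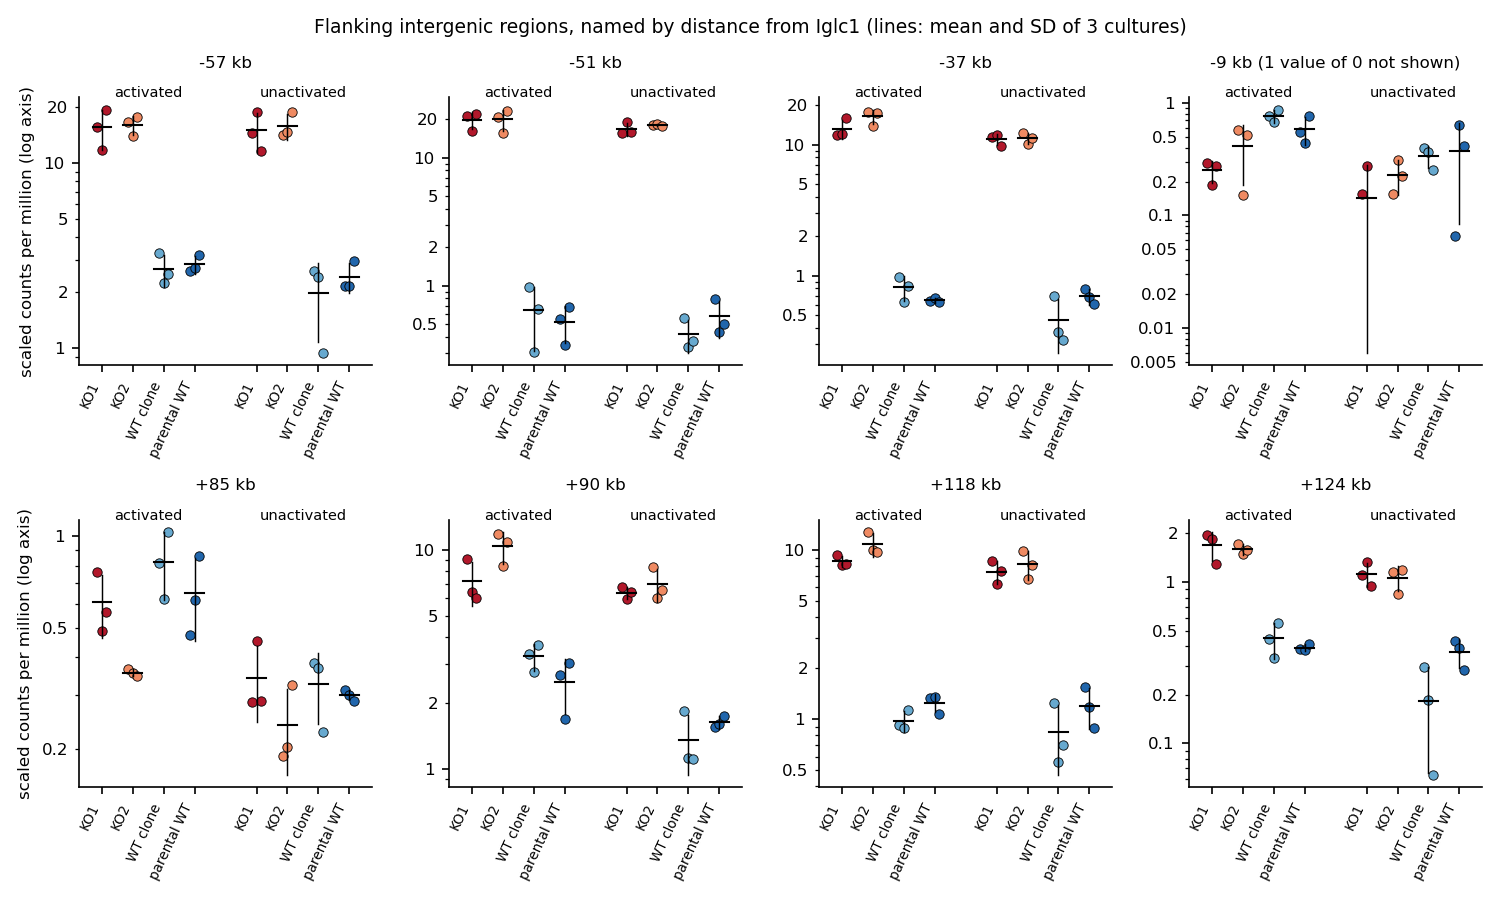
Scaled CPM (log axis) of the 8 flanking regions in each library, named by distance from Iglc1, by line and state. Points are cultures, horizontal lines are means of 3 and vertical lines are SDs. In 6 panels all KO cultures lie above all WT cultures, and in the -9 kb and +85 kb panels they overlap.

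Per kilobase of region, the order of the locus differed between genotypes. In activated KO cells the -51 kb region had the highest mean level at 10.8 CPM per kb, followed by the -37 kb region at 6.55, the +118 kb region at 6.07 and the +90 kb region at 2.84 CPM per kb. The Iglc1-Iglc3 region came after these and the -57 kb region, at 1.88 CPM per kb. In activated WT cells the Iglc1-Iglc3 region led with 13.7 CPM per kb and the Iglc2 region followed with 1.55 CPM per kb, while no flanking region exceeded 0.933 CPM per kb. In unactivated cells the -51 kb region had 9.43 CPM per kb in KO and 0.271 in WT cells, and the Iglc1-Iglc3 region had 2.97 CPM per kb in KO and 13.7 in WT cells. The -57 and +90 kb regions of activated KO cells, and the -37 and +118 kb regions of unactivated KO cells at 4.90 and 4.91 CPM per kb, lay within the spread of cultures of each other.

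Summed over both constant gene regions, RNA was 14.7 ± 2.91 CPM in activated KO cells and 93.6 ± 18.6 CPM in activated WT cells, and 20.7 ± 7.56 CPM in unactivated KO cells and 92.5 ± 27.7 CPM in unactivated WT cells (SD, n = 6). Summed over the 8 flanking regions it was 71.5 ± 9.87 CPM in activated KO cells and 9.90 ± 1.45 CPM in activated WT cells, and 60.0 ± 4.92 CPM in unactivated KO cells and 6.75 ± 1.57 CPM in unactivated WT cells (SD, n = 6). The flanking sum was 3.78 to 6.48 times the constant gene sum in activated KO cultures and 0.0737 to 0.144 times in activated WT cultures. In unactivated cultures it was 1.80 to 4.81 times in KO and 0.0507 to 0.101 times in WT. These sums cover regions of different length and are given without a test, because the members were chosen with results known.

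**Figure D4:**
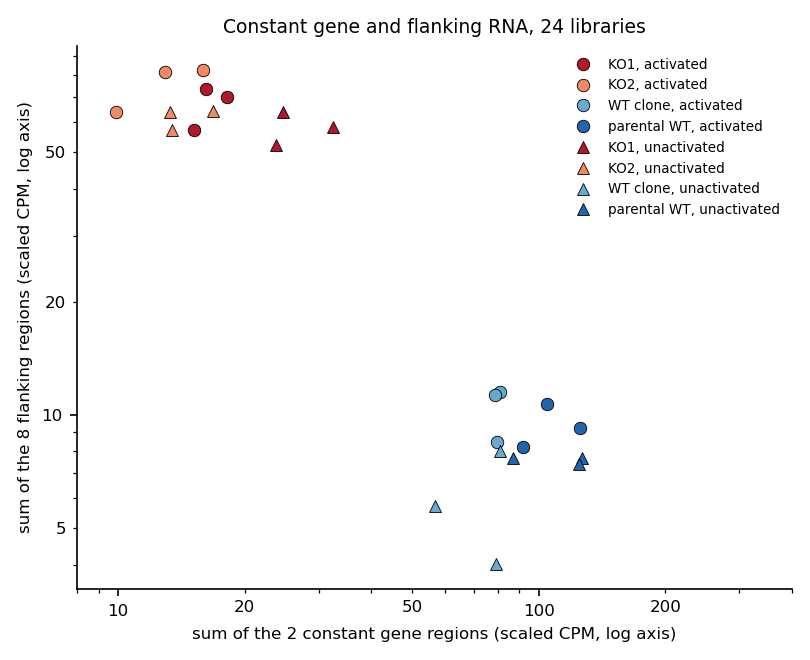
Sum of the 8 flanking regions (y axis) against the sum of the 2 constant gene regions (x axis) in each of the 24 libraries, both in scaled CPM on log axes. The 12 KO libraries lie at 52.4 to 82.5 CPM of flanking RNA, and the 12 WT libraries at 4.00 to 11.5 CPM.

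Lines of one genotype were compared within each state. The Iglc1-Iglc3 region averaged 13.4 ± 1.80 CPM in unactivated KO2 and 25.3 ± 4.46 CPM in unactivated KO1 (SD, n = 3), a log2 change of -0.92 ± 0.19 (adjusted p = 0.0306). It was the only one of the 11 regions called between KO2 and KO1 in unactivated cells, where 0.151% of all tested regions were called in either direction. The call was lost under 8 of 13 alternatives, among them 5 of 6 that left out 1 library, all but the one without KO1 replicate 3, with adjusted p up to 0.209. In activated cells the log2 change of KO2 over KO1 was -0.43 ± 0.19 (adjusted p = 0.748), and 0 of the 11 regions were called by edgeR or DESeq2, against 0.169% of all regions by edgeR. Of the 11, 3 had an unadjusted p under 0.05, a threshold at which the share of all tested regions was not counted. For the Iglc1-Iglc3 region the 3 KO2 cultures lay under the 3 KO1 cultures in both states. Activated cultures also did not overlap for the +85 kb region, at 0.348 to 0.367 CPM in KO2 and 0.489 to 0.763 CPM in KO1. The same held for the +118 kb region, at 9.69 to 12.8 CPM in KO2 and 8.17 to 9.37 CPM in KO1. Unactivated cultures did not overlap for the Iglc2 region, at 0.874 to 1.34 CPM in KO2 and 1.44 to 1.95 CPM in KO1. The share of all tested regions without overlap between the KO lines was not counted, so these values are a description only.

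Between the WT clone and parental WT, 0 of the 11 regions were called by edgeR in either state, where 0.186% of all tested regions were called in activated and 0.107% in unactivated cells. An unadjusted p under 0.05 was found for 1 of the 11 in activated and 4 in unactivated cells. The share of all tested regions at that threshold was not counted, so these counts have nothing to be read against. The Iglc1-Iglc3 region averaged 76.3 ± 1.87 CPM in the activated WT clone and 103 ± 16.8 CPM in activated parental WT, and 70.0 ± 13.0 CPM in the unactivated WT clone and 109 ± 21.7 CPM in unactivated parental WT (SD, n = 3). The log2 changes of the WT clone over parental WT were -0.43 ± 0.18 (adjusted p = 0.653) and -0.64 ± 0.18 (adjusted p = 0.196), and the cultures of the 2 lines did not overlap in either state. DESeq2 called the unactivated difference of this region, and 0 in activated cells. In unactivated cells the Iglc2 region also did not overlap between the 2 WT lines. It had 1.70 to 2.76 CPM in the WT clone and 3.04 to 4.38 CPM in parental WT. The share of all tested regions without overlap between the WT lines was not counted. None of the 8 flanking regions was called between lines of one genotype in either state.

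Fewer regions were called between states than between genotypes. In KO lines 2 of the 11 regions were called higher and 1 lower, where 19.6% of all tested regions were called higher and 3.52% lower. The Iglc1-Iglc3 region fell by 0.60 ± 0.13 on the log2 scale in activated KO cells (adjusted p = 0.00256). The fall was lost in KO2 alone, at -0.35 (adjusted p = 0.291), and with counts summed per line (adjusted p = 0.307). The Iglc2 region rose by 0.84 ± 0.20 (adjusted p = 0.00429), a call lost in KO1 alone at 0.58 (adjusted p = 0.221), with regions alone and with counts summed per line, and the +85 kb region rose by 0.71 ± 0.23 (adjusted p = 0.0318). The last call was lost under 14 of 22 alternatives, 7 of them with 1 library left out (KO1 replicate 1 or 3 or KO2 replicate 1 or 2 of the unactivated cultures, or KO1 replicate 1 or KO2 replicate 1 or 2 of the activated ones), which gave adjusted p between 0.0587 and 0.0919. Over all alternatives its adjusted p reached 0.401, with KO2 alone.

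In WT lines 2 of the 11 regions were called higher and 0 lower, where 14.3% of all tested regions were called higher and 4.91% lower. The +85 kb region rose by 1.22 ± 0.22 (adjusted p = 5.18e-04), with 0.736 ± 0.203 CPM in activated and 0.314 ± 0.0565 CPM in unactivated WT cells (SD, n = 6), and without overlap of the states. The +90 kb region rose by 0.93 ± 0.17 (adjusted p = 5.67e-04), a call lost in parental WT alone at 0.60 (adjusted p = 0.147). Both calls were lost with counts summed per line (adjusted p = 0.0853 and 0.0685). Without unactivated WT clone replicate 1, the -37 and +124 kb regions were called too, at 0.56 and 0.95, and without unactivated WT clone replicate 2 the Iglv1 region was, at 1.00. The Iglc1-Iglc3 region of WT cells had a log2 change of 0.02 ± 0.13 (adjusted p = 0.956), and the -51 kb region had 0.24 ± 0.24 (adjusted p = 0.562). In both genotypes a count of 2 of 11 called higher is near the share of all regions.

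The difference between the activation changes of KO and WT lines was tested as an interaction. By edgeR 0 of the 11 regions were called, where 0.746% of all tested regions were. The share of all tested regions with an unadjusted p under 0.05 was not counted, and 2 of the 11 had such a p. These were the Iglc1-Iglc3 region, with a difference of -0.62 ± 0.18 (adjusted p = 0.143), and the +90 kb region, with -0.56 ± 0.24 (adjusted p = 0.400). DESeq2 called the difference of the Iglc1-Iglc3 region (adjusted p = 0.028).

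**Figure D5:**
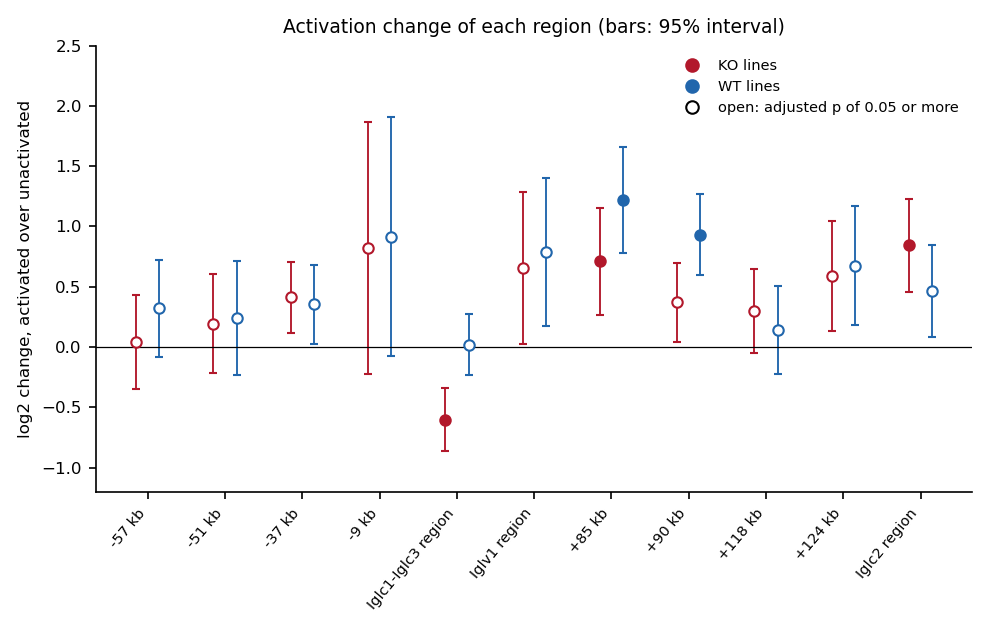
Log2 change of activated over unactivated cells (y axis) for the 11 regions in the order of their position (x axis), in KO lines and WT lines. Bars are 95% intervals and filled points were called. The Iglc1-Iglc3 region of KO lines is the only called point below 0, at -0.60.

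Regions outside the window were described for comparison. Within 1 Mb on either side 13 of 63 other regions were tested. In activated cells 0 of these were called higher and 2 lower in KO, and in unactivated cells 1 was called higher and 1 lower, to be read against the shares of all regions given above. The regions called lower lie in the long noncoding RNA gene Gm35545, which also holds a more abundant region that was not called. Towards the upstream variable genes, the region chr16:19241087-19242205 overlaps Iglv3 and Gm35545 and had 9.58 ± 1.02 CPM in unactivated KO and 6.32 ± 1.09 CPM in unactivated WT cells (SD, n = 6), a log2 change of 0.61 ± 0.11 (adjusted p = 8.36e-04). Its change in activated cells, 0.34 ± 0.11, was not called (adjusted p = 0.0618).

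The nearest tested region beyond the window, chr16:19218197-19218847, covers the start of Gm35545. It averaged 0.446 ± 0.0824 CPM in activated KO and 0.893 ± 0.235 CPM in activated WT cells, and 0.243 ± 0.0483 CPM in unactivated KO and 0.532 ± 0.114 CPM in unactivated WT cells (SD, n = 6). Its log2 changes were -0.98 ± 0.20 (adjusted p = 0.00401) and -1.13 ± 0.21 (adjusted p = 0.00169), the direction of the constant gene regions. A second region of the gene, chr16:19231940-19232674, averaged 0.727 ± 0.202 CPM in activated KO and 1.25 ± 0.203 CPM in activated WT cells (SD, n = 6), a log2 change of -0.77 ± 0.21 (adjusted p = 0.0348), and its change of -0.67 ± 0.22 in unactivated cells was not called (adjusted p = 0.0760). Another region of this gene, chr16:19234827-19238242, held more counts, 5258 against 408 and 620. It averaged 7.38 CPM in activated KO and 8.26 CPM in activated WT cells. Unactivated, it averaged 6.10 CPM in KO and 5.61 CPM in WT cells. Its log2 changes of -0.16 ± 0.13 and 0.13 ± 0.13 were not called (adjusted p = 0.641 and 0.683). The RefSeq promoter of Gm35545 (GRCm38.p6, plus strand, chr16:19218252-19218551) lies inside the first of these regions, chr16:19218197-19218847. It is shown because it is the only annotated promoter sequence held for the stretch whose RNA changed. Capitals mark the E-box letters CANNTG, the core bound by E proteins, which is the same on both strands.
Gm35545: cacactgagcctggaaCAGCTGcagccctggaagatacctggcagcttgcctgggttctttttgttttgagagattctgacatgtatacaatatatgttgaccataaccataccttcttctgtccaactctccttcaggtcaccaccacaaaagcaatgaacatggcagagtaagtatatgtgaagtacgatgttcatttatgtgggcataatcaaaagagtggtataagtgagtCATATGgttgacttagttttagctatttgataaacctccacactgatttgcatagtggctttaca
The promoter holds 2 such matches, and 72.3% of all 32851 promoters of the same 300 bases hold at least 1.

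The kappa locus and the heavy chain locus were measured the same way. The region over Igkc, the kappa constant gene (chr6:70723395-70729468), averaged 102 ± 7.72 CPM in activated KO and 101 ± 18.7 CPM in activated WT cells, with a log2 change of 0.03 (adjusted p = 0.968). In unactivated cells it averaged 104 ± 13.4 CPM in KO and 160 ± 31.0 CPM in WT cells, with a log2 change of -0.62 (adjusted p = 6.47e-04). A region downstream of Igkc (chr6:70749719-70752995) was higher in KO, with log2 changes of 1.84 in activated (adjusted p = 8.60e-07) and 1.35 in unactivated cells (adjusted p = 3.41e-05). The 4 regions of the Igh 3' regulatory region, the enhancer cluster behind the heavy chain constant genes, were called higher in both states, by 1.08 to 4.47 on the log2 scale. These values stand beside those of the lambda locus as a description, with no test between loci.

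Genes that act on the light chain loci were counted from lists of measured regions inside each gene. Reads assigned to transcript targets are not part of these gene values, which are not the mRNA levels of the genes. Of 4520 tested gene values, 8.96% were called in activated and 7.74% in unactivated KO against WT cells. Of 23 factors known to act at light chain enhancers, 18 were tested, and 3 rose and 0 fell in activated KO cells, with a median log2 change of 0.16 against -0.02 over all gene values. In unactivated KO cells 1 rose and 1 fell, with a median of 0.11 against -0.03. Irf4, which binds the lambda enhancers together with PU.1, averaged 3.67 ± 0.546 CPM in activated KO and 1.98 ± 0.367 CPM in activated WT cells (log2 change 0.81, adjusted p = 0.00421). Tcf4, an E protein, averaged 20.0 ± 2.90 CPM in activated KO and 10.9 ± 3.66 CPM in activated WT cells (log2 change 0.80, adjusted p = 0.00198). Ebf1, a B lineage factor, rose in both states, by 0.69 (adjusted p = 0.00653) and 0.57 (adjusted p = 0.0311). Irf8, a relative of Irf4, averaged 0.140 ± 0.088 CPM in unactivated KO and 0.852 ± 0.481 CPM in unactivated WT cells (log2 change -2.59, adjusted p = 2.41e-04), and its change of -0.88 in activated cells was not called (adjusted p = 0.113). Spi1, which encodes PU.1 and was named after its values were seen, had log2 changes of 0.09 and -0.08 and was not called in either state.

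Of 8 genes for receptor assembly and signalling, 6 were tested. Blk, a Src-family kinase of B cells, averaged 4.34 ± 1.71 CPM in activated KO and 1.59 ± 0.777 CPM in activated WT cells, a rise of 1.40 (adjusted p = 2.20e-07), and it rose by 0.45 in unactivated KO cells (adjusted p = 0.0403). Syk, the kinase that carries the receptor signal, fell by 0.70 in activated KO cells (adjusted p = 0.00738). Of 8 genes for antibody folding and secretion 3 were tested, and Prdm1, the plasma cell regulator, rose by 1.23 in activated (adjusted p = 9.05e-04) and 0.92 in unactivated KO cells (adjusted p = 0.00361), at levels under 1 CPM on average. Of 10 recombinase and joining genes 1 was tested, Prkdc, and it was not called. The lambda, kappa and surrogate light chain genes had no gene value, because no numbered region lies wholly inside one of them.

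Among 3982 gene values, those with the highest Pearson correlation of log2 CPM with the summed constant gene RNA over the 24 libraries were Adgrl2 (r = 0.841), Cacng8 (0.833), Fads2 (0.828), Ss18 (0.826) and Gramd3 (0.800). Fads2, a fatty acid desaturase, averaged 1.83 CPM in activated KO and 7.01 CPM in activated WT cells. Among those with the highest correlation with the summed flanking RNA were Irf2 (0.964), Vps41 (0.929), Nfatc1 (0.893) and Lclat1 (0.892). Irf2, an interferon regulatory factor, averaged 3.04 CPM in activated KO and 1.58 CPM in activated WT cells, and Nfatc1, a calcium-regulated transcription factor, averaged 25.3 CPM in activated KO and 12.0 CPM in activated WT cells. The 24 points share 4 lines and 2 genotypes, and the correlations are given as a description.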

How the data were processed

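RNA-seq of CH12 cells was measured in 24 libraries, 8 groups of 3 biological repeats, grouped by the labels. The deposited tables give, for each transcript, named element and numbered genomic region, an estimated count and a TPM made by the authors with kallisto 0.43.0 on GRCm38.p5, per the submitters' processing notes, which also name DESeq2. The sources used here give neither the strand setting nor the annotation release. The deposited TPM values enter no result.

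Estimated counts were rounded and tested with edgeR 4.0.16 (quasi-likelihood, TMM scaling, filterByExpr, R 4.3.3, limma 3.58.1), with Benjamini-Hochberg adjustment over all 61074 targets that passed the filter of 171152. Targets were called at adjusted p under 0.05. Intervals are 1.96 SE on either side, and SE is the log2 change divided by the root of F. Alternatives were DESeq2 1.42.0, other scaling, no filter, regions only, single lines, counts summed per line, a replicate block and each library left out. The fit was tested on simulated data.

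Regions were placed by the coordinates in the tables and by RefSeq genes of GRCm38.p6. A gene value sums the regions wholly inside exactly 1 gene and leaves out reads assigned to transcript targets. Gene values were tested in a separate edgeR fit, with its own scaling and with adjustment over the 4520 gene values tested. Their CPM levels use the scaling of the main fit, so ratios of their means need not match their log2 changes. Every region of the window was accounted for. Values in each library were given for the constant gene regions and for the 4 flanking regions with the largest summed count, and also for the +118 kb region, chosen after its values were seen. For each gene list and comparison, genes were named from the 4 with the smallest p where called, and Spi1 was added after its values were seen. The members, gene lists and markers were chosen with earlier results of these data known. A few genes that these rules name are not reported here. The libraries of other assays were not analysed here.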

Additional observations from a re-analysis of the deposited data

Results flagged for a closer look

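Of 44 groups of 6 libraries examined for a library far from the others, 1 was marked. For the +90 kb region in unactivated KO cells, KO2 replicate 1 had 8.30 CPM, against 5.97 to 6.74 CPM in the other 5 KO libraries. Chance marks about 1 in 20 such groups.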

How the results depend on the processing

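Of the counts of called regions and sums, 220 values under alternatives stayed within 1.5 times the reported one and 22 did not. Of the single-region values, 1420 were counted as unchanged, 29 gained a call, 51 lost one and 0 reversed direction with a call. Those counted as unchanged include uncalled changes whose direction differed. For the +85 kb region, the change between KO and WT in unactivated cells ran from -0.36 to 0.10 over the alternatives. With counts summed per line, KO against WT cells gave 4 called regions in activated and 5 in unactivated cells, against 8 each. The share of all tested regions called under each alternative is not given here, so these counts of called regions are a description only. For activation in KO lines the count was 1 with KO1 alone, 1 with KO2 alone, 1 with regions only and 0 with counts summed per line, against 3. For activation in WT lines it was 1 with parental WT alone, 4 with the WT clone alone and 0 with counts summed per line, against 2, and 2 to 4 with 1 library left out. For KO2 against KO1 in unactivated cells it was 0 without the low-count filter, 0 with regions only and 0 with only the libraries compared, against 1, and 0 to 1 with 1 library left out. For the interaction, DESeq2 gave 1 and the replicate block 1, against 0. For the WT clone against parental WT in unactivated cells, DESeq2 gave 1 and the replicate block 1, against 0. The replicate block gained 4 calls and lost 0 among the single regions: the interaction of the Iglc1-Iglc3 region (-0.62, adjusted p = 0.0376), its difference between the WT clone and parental WT in unactivated cells (-0.65, adjusted p = 0.0460), and the activation changes of the -37 kb region in KO lines (0.41, adjusted p = 0.0494) and of the Iglc2 region in WT lines (0.48, adjusted p = 0.0396). Deviations of 84 same-numbered pairs of libraries correlated at -0.211 to 0.171, with a median of 0.028 and 4 pairs over 0.1, and those of 168 pairs with different numbers had a median of -0.015, also with 4 over 0.1. As a hint from the data, 16 of 24 libraries correlated best with their own number. The labels do not say that a number marks a shared batch, and not every pair was over 0.1, so the numbers were not taken to pair the cultures. The causes were not tested. The -9 kb and +85 kb regions had the lowest counts, 299 and 352 over all libraries.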
